A study of Mus musculus with 8 samples.

Results

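Transcripts of p53 and of genes that p53 is known to switch on were followed in livers of newborn mice without glycerol kinase. The set was a list of 10 genes, namely Trp53 (which encodes p53), Mdm2, Ccng1, Trp53inp1, Bax, Bbc3, Gadd45a, Btg2, Zmat3 and Fas, and its members were the probe sets annotated with 1 of these symbols. Of the 10 genes, 8 were paired with a probe set, by 14 probe sets out of 45037. Trp53 and Bax were not paired with any in the annotation used and were not analysed here. The compared groups were 4 livers of glycerol kinase knockout pups and 4 livers of age-matched wild-type littermates, each on its own Affymetrix Mouse 430 2.0 array. All pups of both groups were of the inbred C57BL/6J strain, were labelled male and were taken on day of life 3. The design states that knockout pups show hypoglycemia and acidosis by then. The glycerol kinase gene itself was not analysed here, and no check of the genotype by its level was made.

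The p53 protein is a transcription factor that accumulates after DNA damage and other stress. Its targets include Mdm2, the ubiquitin ligase that in turn has p53 degraded, genes that stop cell division, and genes that start cell death through mitochondria or through death receptors at the cell surface. Several of these genes are also switched on without p53: Btg2 is an immediate early gene of growth factor signalling, and Gadd45a answers to amino acid shortage and other stress signals. In liver, Fas is carried by hepatocytes as well as by lymphocytes.

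No gene of the set passed the test over all probe sets (adjusted p under 0.05), and the values did not all lie on the same side. Trp53inp1 had the largest difference, with a mean signal 3.09 and 2.13 times as high in knockout as in wild-type livers on its probe sets, and its adjusted p of 0.0576 on the second of these was the lowest of the set. Btg2 and Bbc3 also lay higher on average in the knockout (1.40 and 1.44 times), while Gadd45a and Fas lay lower (0.650 and 0.694 times). The 4 knockout arrays lay wholly on one side of the 4 wild-type arrays for 1 probe set each of Trp53inp1, Btg2, Gadd45a and Fas. That was 33.3% of the 12 tested probe sets of the set, beside 9.32% of all probe sets tested. Mdm2 and Ccng1 overlapped between the groups on every probe set, with adjusted p of 0.448 or more on those tested.

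To show the promoter sequence of these genes, the bases before each transcription start were set against the p53 response element, a pair of decamers side by side. RefSeq promoter windows (build GRCm38.p6) were held for 6 of the 8 measured genes, and for Trp53inp1 and Zmat3 none was used. The 20 bases closest to the consensus within the 250 bases before the start are printed 5′ to 3′ on the gene's strand. Capitals mark bases that fit the consensus and lower case those that do not.
Ccng1: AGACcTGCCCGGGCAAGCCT
Bbc3: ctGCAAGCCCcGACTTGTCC
Gadd45a: AAACTAcCTaGAGCTgGCTC
Mdm2: GAACTTGCCTAGcgAccaTT
Fas: GGGCTTtaCgAAGaTTGTgT
Btg2: GcGCTTcCTCtGcCcAGgTC
The Ccng1 stretch, 195 to 176 bases before the start, missed the consensus at 1 base, and 0.0761% of all 32851 windows held a stretch as close. The Bbc3 and Gadd45a stretches missed it at 3 bases (5.32% of windows), those of Mdm2 and Fas at 5 (71.1%) and that of Btg2 at 6 (97.4%). Bbc3 has 3 windows in the table, and the closest match among them is shown. A match is a likeness of letters and not a bound site, and sites of Mdm2 and Fas known from other work lie in introns, outside these windows.

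The windows of the cyclin G1 gene and of the growth arrest genes Gadd45a and Btg2 are given in full, because the first holds the closest p53-like stretch and the others belong to genes with a probe set on which the groups did not overlap, lower in the knockout for Gadd45a and higher for Btg2. Capitals mark the p53-like stretch printed above and every match on either strand to CCAAT, to the octamer ATTTGCAT, to the cyclic AMP response element TGACGTCA and to TATAAA.
Ccng1 (chr11:40755287-40755536, minus strand): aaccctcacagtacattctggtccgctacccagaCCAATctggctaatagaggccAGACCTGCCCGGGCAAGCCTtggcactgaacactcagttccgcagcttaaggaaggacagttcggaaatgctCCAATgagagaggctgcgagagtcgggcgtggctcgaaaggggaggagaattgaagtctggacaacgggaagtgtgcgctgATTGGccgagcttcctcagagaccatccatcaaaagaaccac
Gadd45a (chr6:67037408-67037657, minus strand): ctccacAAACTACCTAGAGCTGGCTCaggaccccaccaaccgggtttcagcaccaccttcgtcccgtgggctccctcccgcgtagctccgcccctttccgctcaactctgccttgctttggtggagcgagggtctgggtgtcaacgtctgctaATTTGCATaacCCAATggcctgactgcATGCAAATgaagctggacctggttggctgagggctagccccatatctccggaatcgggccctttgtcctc
Btg2 (chr1:134079156-134079405, minus strand): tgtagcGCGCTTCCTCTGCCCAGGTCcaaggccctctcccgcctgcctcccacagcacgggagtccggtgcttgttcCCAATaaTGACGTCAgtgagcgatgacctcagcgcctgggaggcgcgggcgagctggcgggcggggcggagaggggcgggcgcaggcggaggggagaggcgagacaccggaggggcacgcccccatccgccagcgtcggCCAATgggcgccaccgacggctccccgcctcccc
The Gadd45a window held the octamer at 2 places, on opposite strands, 97 and 70 bases before the start, and 1.6% of all windows held it at least once. The Btg2 window held TGACGTCA 166 bases before the start, a motif found in 1.55% of windows. CCAAT occurred in all of these windows and in 33.8% of all windows, and TATAAA in none of these and in 12.4% of all. No motif overlapped another.

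Signals are on a linear scale, set by the authors to a target of 500 on every array, and they compare arrays within a probe set but not genes with each other. The mean trimmed of 2% at each end was 500.0 on each array, the median signal ran from 147 to 175, and 42.6% to 46.7% of probe sets reached 200. Markers of hepatocytes were present as the label liver implies, with 7 of 7 at or above 200 on at least 4 arrays. Control probe sets showed that replicates 1 and 2 of both groups differed from replicates 3 and 4: the 3'/5' signal ratio of the transferrin receptor was 6.50 to 6.72 on replicates 1 and 2 and 4.21 to 4.83 on replicates 3 and 4. These are called array sets here, with 2 knockout and 2 wild-type arrays in each, and the labels name no batch. The array labelled wild type 4 went against its label of male, with Xist at 10506 against 196 to 396 on the other 7 arrays and Eif2s3y at 1.3 against 685 to 1164. The 3'/5' ratio of the pyruvate carboxylase control, which rises as RNA degrades or is labelled short, was 7.03, 4.93, 2.07 and 2.06 on knockout 1 to 4 and 2.12 to 3.46 on the wild-type arrays. Whether the littermates stem from separate litters is not given in the sources used here, and p-values measure the spread between these 8 livers.

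**Figure D1:**
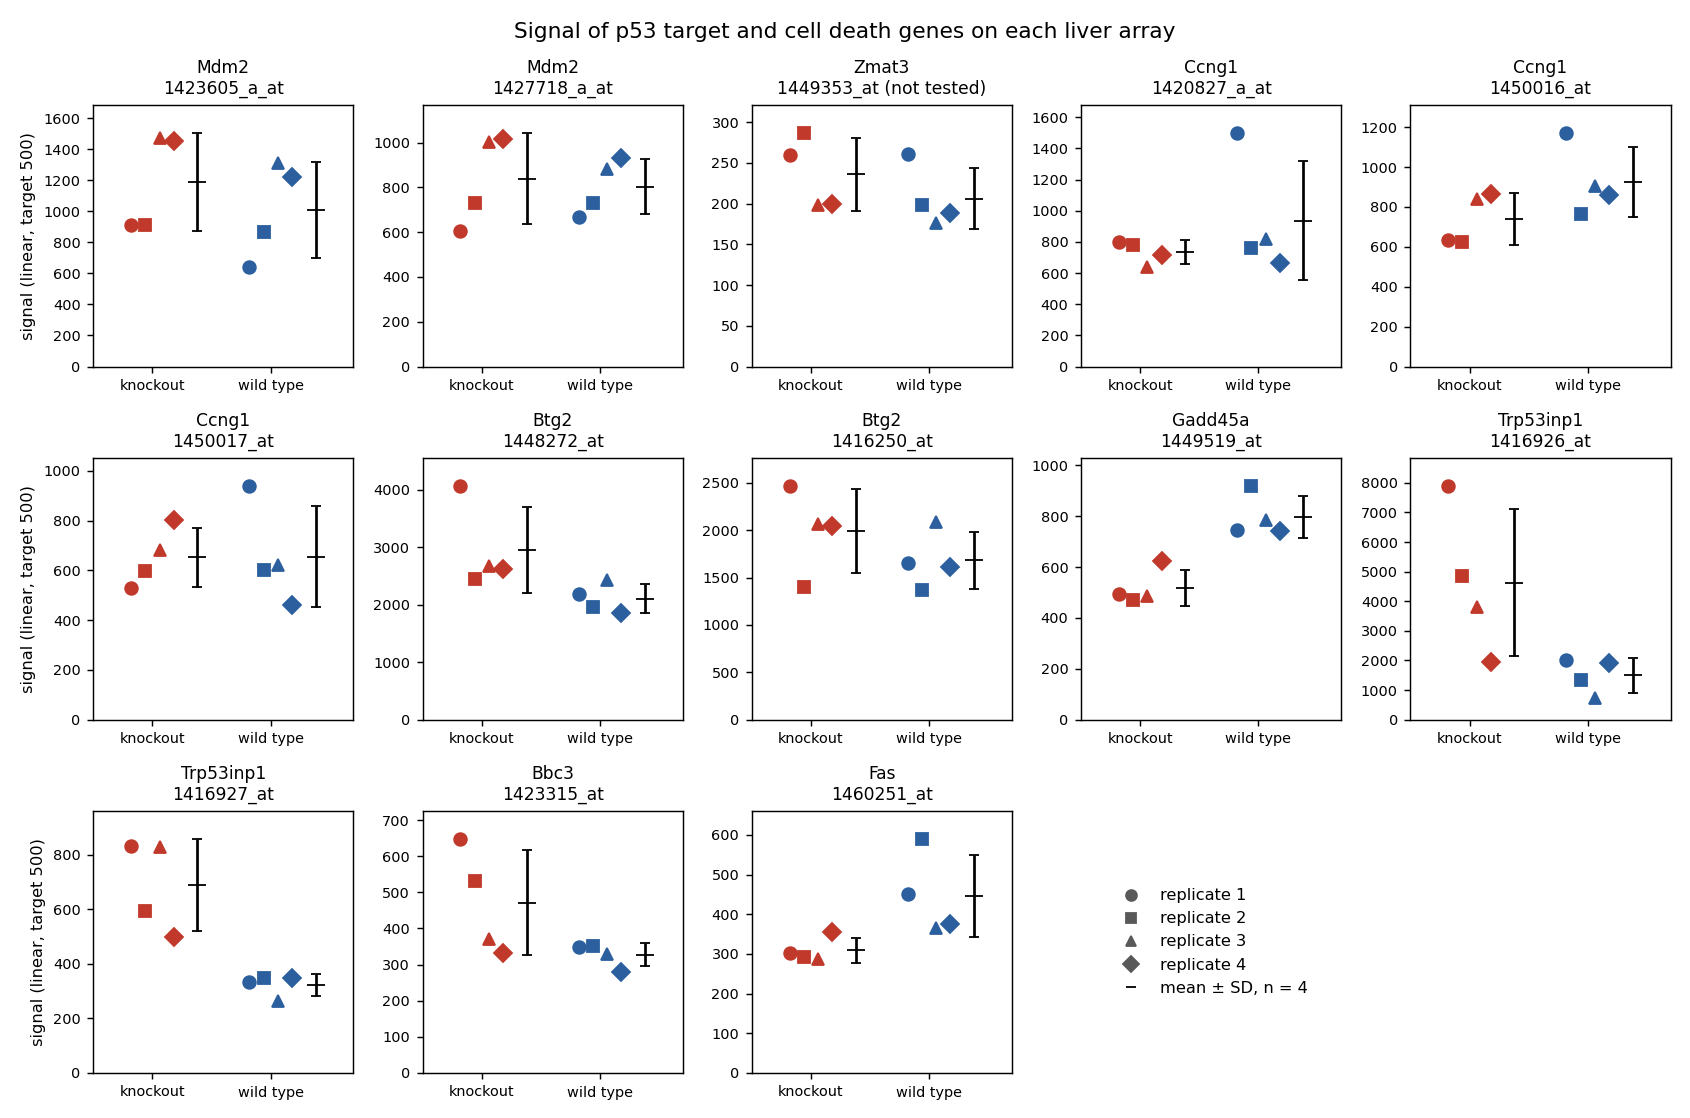
Signal (linear, target 500) of 13 probe sets of the 8 measured genes on each array, knockout at left and wild type at right; symbols give the replicate number and the bar gives the mean ± SD of 4 arrays. The groups are apart for Gadd45a, Fas, the brighter Btg2 and the second Trp53inp1 probe set, and they overlap elsewhere. The dimmest Mdm2 probe set, under 200 on every array, is not drawn.

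Of the 14 probe sets, 12 (7 genes) reached a signal of 200 on 4 or more arrays and were tested, and each of these 12 in fact did so on all 8. The test was limma on log2(signal + 16) over all 20395 probe sets that met this minimum, with Benjamini-Hochberg adjustment over all of them. It called 61 probe sets, 0.299% of those tested, and 0 of the 12, whose adjusted p ran from 0.0576 to 0.976. At an unadjusted p under 0.05 there were 5 of the 12, against a background of 14.4%. The groups did not overlap for 4 of the 12 (33.3%), 2 higher and 2 lower in the knockout, beside 9.32% of all probe sets tested (4.47% higher and 4.85% lower). Probe sets of 1 gene read the same RNA and are not independent. By the brightest tested probe set of each gene, 4 of 7 genes lay above 0 and 3 below, with a median log2 fold change of 0.25 beside -0.02 over the 10878 named genes tested.

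Among the regulators of p53 itself, Mdm2 had no clear difference. Its brightest probe set stood at 913, 914, 1470 and 1455 on knockout 1 to 4, and at 642, 863, 1308 and 1220 on wild type 1 to 4. The signals differed more between the array sets than between the genotypes, with replicates 3 and 4 of both groups above replicates 1 and 2. The means were 1188 ± 317 in the knockout and 1009 ± 311 in wild type (SD, n = 4 each), a log2 fold change of 0.25 ± 0.25 (SE; limma adjusted p = 0.704). Within replicates 1 and 2 the difference was 0.29 and within replicates 3 and 4 it was 0.21. With the pyruvate carboxylase 3'/5' ratio as a covariate it was 0.47 (adjusted p = 0.251). The second tested Mdm2 probe set gave 0.04 ± 0.19, with -0.07 in replicates 1 and 2 and 0.15 in replicates 3 and 4. The third, with 84.0 to 126 in knockout and 86.8 to 189 in wild-type livers, was too dim to test. Without wild type 1 the value of the brightest set was 0.05.

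Cyclin G1, encoded by Ccng1, binds a phosphatase subunit and takes part in the feedback between p53 and Mdm2. On its brightest probe set the signal was 802, 782, 636 and 717 in knockout livers, and 1500, 764, 818 and 666 in wild-type livers. Wild type 1 was the high value of this gene on each of its 3 probe sets, and the groups overlapped on all of them. The log2 fold changes were -0.28 ± 0.23, -0.31 ± 0.18 and 0.02 ± 0.22 (limma adjusted p = 0.628, 0.448 and 0.976). Without wild type 1 the value of the brightest set was -0.03. Zmat3, an RNA-binding zinc finger protein that p53 induces, was not tested, since 3 arrays reached 200. Its signal was 259, 287, 198 and 199 in knockout livers and 261, 198, 177 and 189 in wild-type livers, with the groups overlapping.

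Gadd45a and Btg2 act in growth arrest, and neither passed the test. Gadd45a, whose protein binds PCNA and a stress kinase, had a signal of 496, 469, 486 and 623 on knockout 1 to 4, and of 747, 919, 786 and 742 on wild type 1 to 4. Every knockout liver lay below every wild-type liver. The mean was 519 ± 70.7 in the knockout and 798 ± 82.9 in wild type (SD, n = 4 each), a log2 fold change of -0.61 ± 0.14 (SE; limma adjusted p = 0.0995). It was -0.76 within replicates 1 and 2, -0.46 within replicates 3 and 4, and -0.57 with the pyruvate carboxylase ratio as a covariate. Without knockout 4, the knockout liver nearest to wild type, the value was -0.70 with an adjusted p of 0.0484, in a fit that called 1.64% of all probe sets. Without the array labelled wild type 4 it was -0.64 (adjusted p = 0.170).

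Btg2, an antiproliferative partner of the mRNA deadenylase complex, stood higher in the knockout on its brighter probe set. The signals were 4065, 2449, 2676 and 2625 in knockout livers, and 2179, 1958, 2431 and 1856 in wild-type livers. The groups did not overlap, but knockout 2 at 2449 and wild type 3 at 2431 nearly met, and knockout 1 was far above the rest. The mean was 2954 ± 747 in knockout and 2106 ± 255 in wild-type livers (SD, n = 4 each), a log2 fold change of 0.46 ± 0.18 (limma adjusted p = 0.273), with 0.61 in replicates 1 and 2 and 0.32 in replicates 3 and 4. Without knockout 1 it was 0.30. The other Btg2 probe set overlapped, with 1399 to 2467 in the knockout and 1372 to 2086 in wild type, at 0.23 ± 0.19.

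Among the genes tied to cell death, Trp53inp1 stood apart by its size. Its protein is a nuclear partner of p53 that also takes part in autophagy. The brightest probe set gave 7895, 4848, 3791 and 1963 on knockout 1 to 4, and 2005, 1328, 720 and 1930 on wild type 1 to 4. Knockout 1, 2 and 3 exceeded every wild-type liver, whereas knockout 4 lay among them. The mean was 4624 ± 2485 in knockout and 1496 ± 599 in wild-type livers (SD, n = 4 each), a log2 fold change of 1.56 ± 0.42 (SE; limma adjusted p = 0.133).

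The second Trp53inp1 probe set gave 833, 594, 829 and 498 in knockout livers, and 333, 347, 265 and 347 in wild-type livers. Here all knockout livers lay above all wild-type livers, and knockout 4 was again the lowest of its group. The mean was 689 ± 169 in knockout and 323 ± 39.3 in wild-type livers, a log2 fold change of 1.03 ± 0.19 (limma adjusted p = 0.0576). This set gave 1.01 and 1.04 within the array sets, whereas the brightest gave 1.91 within replicates 1 and 2 and 1.20 within replicates 3 and 4. With the array sets as a block the adjusted p was 0.0663 for the brightest set and 0.0426 for the second, where 0.902% of all probe sets were called. With that block and without wild type 4 they were 0.0260 and 0.0570 (0.755% called). At a signal minimum of 400 the second set had an adjusted p of 0.0475 (0.809% called), but it met that minimum only through the knockout arrays, with all 4 wild-type arrays under it, so this value is no support. Without knockout 4 both passed, at 1.91 (adjusted p = 0.0377) and 1.17 (0.0251), with 1.64% of all probe sets called. With the pyruvate carboxylase ratio as a covariate the values were 1.21 (0.124) and 0.97 (0.0712). The knockout signals of the brightest set had the order of that ratio, and those of the second did not. Knockout 3 and 4 hardly differed in the ratio (2.07 and 2.06), and the wild-type signals of both sets did not follow it. The part of RNA quality was not tested beyond the covariate fit. Without the array labelled wild type 4 the values were 1.71 (0.179) and 1.07 (0.111).

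Bbc3 encodes PUMA, a BH3-only protein that sets off cell death at mitochondria. Its signal was 648, 533, 372 and 333 on knockout 1 to 4, and 347, 353, 330 and 281 on wild type 1 to 4. Knockout 1 and 2 stood well above wild type, knockout 3 just above it and knockout 4 within it. The mean was 471 ± 146 in knockout and 328 ± 32.8 in wild-type livers (SD, n = 4 each), a log2 fold change of 0.46 ± 0.21 (limma adjusted p = 0.353), with 0.72 in replicates 1 and 2 and 0.20 in replicates 3 and 4. The order of the knockout arrays was that of their pyruvate carboxylase 3'/5' ratio (7.03, 4.93, 2.07 and 2.06), though knockout 3 and 4 hardly differed in it. The wild-type signals followed the ratio only in part. With that ratio as a covariate the value was 0.26 (adjusted p = 0.396). The part of RNA quality in this difference was not tested beyond that fit. Without knockout 1 the value was 0.30 and without knockout 4 it was 0.60.

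Fas, the death receptor that starts the caspase 8 cascade when its ligand binds, stood lower in the knockout. The signals were 301, 293, 286 and 356 in knockout livers, and 451, 590, 366 and 375 in wild-type livers. The groups did not overlap, although knockout 4 at 356 was close to wild type 3 at 366. The mean was 309 ± 32.0 in knockout and 445 ± 103 in wild-type livers (SD, n = 4 each), a log2 fold change of -0.48 ± 0.18 (limma adjusted p = 0.257), with -0.76 in replicates 1 and 2 and -0.21 in replicates 3 and 4. T and natural killer cells carry Fas too, and none of their markers was called. The summed signal of the 5 of 6 markers with a probe set was 1334 to 2386 in knockout and 2397 to 3599 in wild-type livers. Of the 3 tested, the granzyme gene Gzma was without overlap, at 559 to 1192 in knockout and 1413 to 2536 in wild-type livers (-1.15 ± 0.25; limma adjusted p = 0.0826). Nkg7 at -0.22 ± 0.20 and Cd8a at 0.03 ± 0.16 overlapped, and Cd3e and Cd3g were under the signal minimum. Gzma was the brightest of these markers on every array, so the separation of the sums does not stand for the other markers. In whole liver fewer cells of a type and less RNA per cell cannot be told apart, and the part of these cells in the Fas value was not tested.

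**Figure D2:**
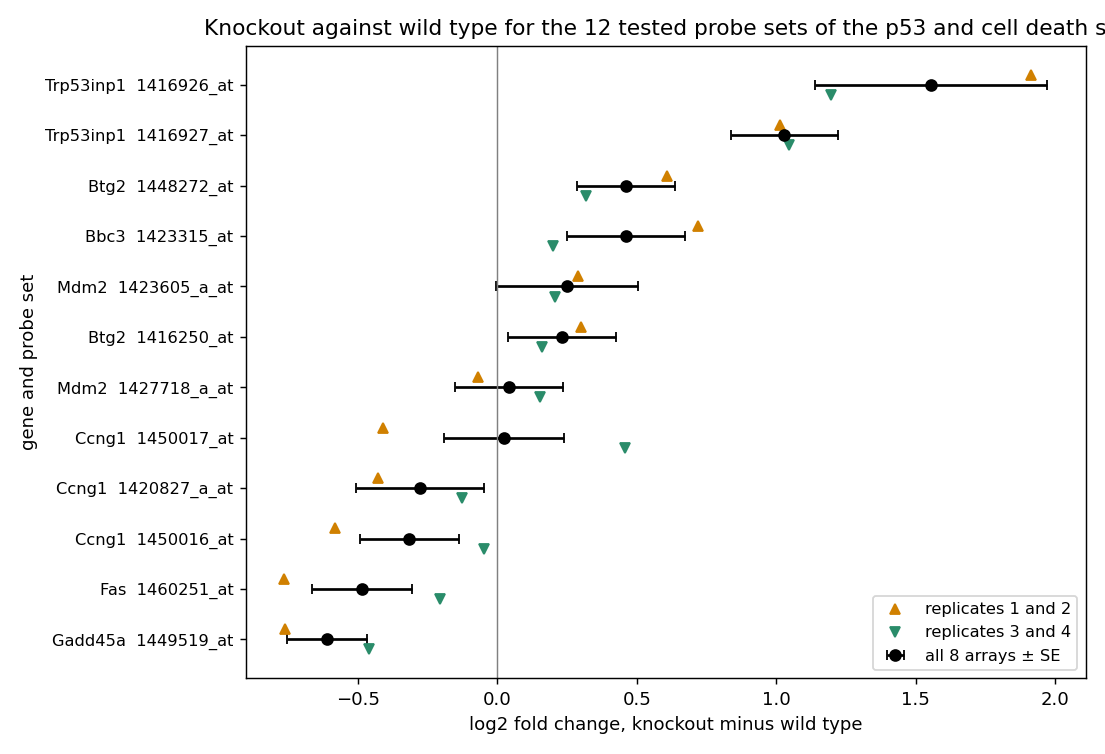
Log2 fold change, knockout minus wild type, for the 12 tested probe sets: black points with SE are over all 8 arrays, triangles are within replicates 1 and 2 (up) and within replicates 3 and 4 (down). Both Trp53inp1 probe sets lie at 1.03 or above, and Gadd45a lies lowest at -0.61. The dimmest Ccng1 probe set and the second Mdm2 probe set have opposite signs in the array sets.

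On the brightest probe sets, 7 of 7 genes had the same sign in both array sets, and for 7 of 7 the size was larger in replicates 1 and 2, which hold knockout 1 and 2. The difference between array sets was itself tested over all probe sets: 0.00981% were called, none of the 12, and the lowest adjusted p of the 12 was 0.490. Knockout 1 was the highest knockout liver for 4 of the 7 genes. Without the array labelled wild type 4, the other genes stood at 0.36 for Mdm2, -0.41 for Ccng1, 0.40 for Btg2, 0.39 for Bbc3 and -0.56 for Fas, with 0 of these called.

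The wider pathway was read through 7 lists with 99 further genes, of which 93 had a probe set and 80 were tested. None passed over all probe sets tested (lowest adjusted p = 0.0742). Before adjustment, 11 lay higher and 8 lower with a p under 0.05, 23.8% of the 80, beside 7.12% higher and 7.32% lower among all probe sets. The 80 are the brightest probe sets of genes listed with earlier results of these data known, so these shares are not like for like. The groups did not overlap for 5 genes higher and 5 lower of the 80, a share near the 9.32% of all probe sets tested (4.47% higher and 4.85% lower). The medians below stand beside the median of -0.02 over all named genes tested.

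Other p53 target genes showed both directions, with 0 of 19 tested genes called, a median of 0.08 and 12 of 19 above 0. Plk3, a stress-induced polo-like kinase, had 1143, 926, 681 and 323 on knockout 1 to 4 and 28.2, 154, 226 and 338 on wild type 1 to 4. Knockout 4 lay within the wild-type range, and 2 wild-type arrays were under 200. Plk3 reached the minimum on 4 arrays only with the knockout arrays counted, so its values are no support. The log2 fold change was 2.16 ± 0.59 (limma adjusted p = 0.136), and 2.07 with the pyruvate carboxylase ratio as a covariate (0.171). In the array sets it was 3.59 and 0.73, the first with wild type 1 at only 28.2.

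Siva1, a target that promotes cell death, stood lower in every knockout liver: 848, 940, 1152 and 1458 in the knockout, and 3177, 2169, 2576 and 1668 in wild type. Its log2 fold change was -1.11 ± 0.22 (adjusted p = 0.0742). Among refits it was -1.25 without knockout 4 (0.0329), in a fit that called 1.64% of all probe sets. It was -0.99 without knockout 1 (0.143) and -1.27 without wild type 4 (0.0878). Its 4 probe sets ran from -1.56 to -0.51. Cdkn1a, the p21 cyclin-dependent kinase inhibitor and best-known p53 target, was chosen after its values were seen. It gave 2347, 1988, 1551 and 568 in knockout livers, and 605, 891, 516 and 1019 in wild-type livers. As with Trp53inp1 and Plk3, knockout 1 was the highest, and knockout 4 lay inside the wild-type range. The log2 fold change was 0.95 ± 0.40 (adjusted p = 0.311), and its 2 tested probe sets ran from 0.95 to 2.02. Among refits of the brightest set it was 1.39 without knockout 4 (0.0354, with 1.64% of all probe sets called) and 0.71 without knockout 1 (0.548). It was 1.11 without wild type 4 (0.326) and 0.68 with the pyruvate carboxylase ratio as a covariate (0.397). Its knockout signals had the order of that ratio, as did those of Bbc3, Plk3 and the brightest Trp53inp1 probe set. Knockout 3 and 4 hardly differed in the ratio (2.07 and 2.06), although these genes were lower on knockout 4. On the wild-type arrays Cdkn1a and that Trp53inp1 probe set did not follow the ratio, and Plk3 ran opposite to it. The part of RNA quality was not tested beyond the covariate fit. Pmaip1, Tnfrsf10b, Eda2r and Rrm2b were under the minimum, and Gdf15, Rpl5, Ripk1 and Btg3 of these lists were not analysed here.

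**Figure D3:**
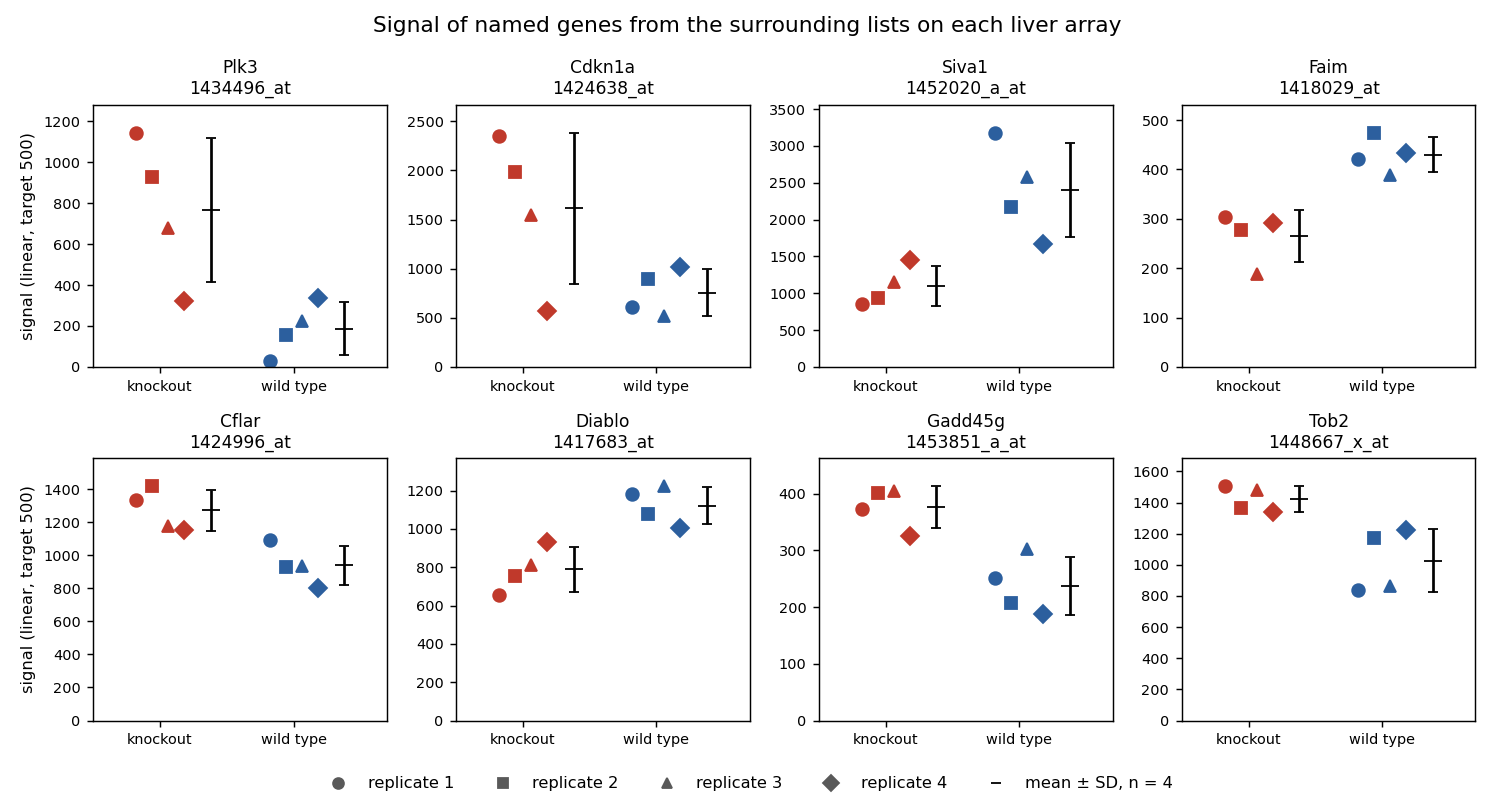
Signal (linear, target 500) of 8 genes from the wider lists on each array, knockout at left and wild type at right; symbols give the replicate number and the bar gives the mean ± SD of 4 arrays. Plk3 and Cdkn1a overlap through knockout 4, while the groups are apart for Siva1, Faim, Cflar, Diablo, Gadd45g and Tob2.

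For kinases and cofactors that act on p53 the median was -0.07, 7 of 14 were above 0 and 0 were called. The damage kinase Atr stood at 420, 551, 631 and 565 in knockout livers and at 703 to 754 in wild-type livers, a log2 fold change of -0.42 ± 0.15 (limma adjusted p = 0.231). Mdm4, the relative of Mdm2 that masks p53, gave 425 to 825 in the knockout and 312 to 593 in wild type, at 0.64 ± 0.24 (0.263), but its other probe set stood at -0.01. The median of this list was -0.35 in replicates 1 and 2 and 0.11 in replicates 3 and 4. Cell division genes, which growing cells express along with several of these kinases, had 0 of 7 above 0 and a median of -0.58, which was -0.96 in replicates 1 and 2 and -0.06 in replicates 3 and 4. Their summed signal over 8 of 9 genes was 24516 to 52975 in knockout and 45434 to 59755 in wild-type livers. Their part in the values of the kinases was not tested.

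In the BCL-2 family, which decides whether mitochondria release cytochrome c, 0 of 10 were called and the median was 0.07. Bid, which links death receptors to mitochondria, was at 402, 516, 542 and 584 in knockout livers and 686, 783, 622 and 709 in wild-type livers, without overlap (-0.45 ± 0.15; limma adjusted p = 0.215). The BH3-only gene Bmf was at 391 to 948 in the knockout against 249 to 594 in wild type, with overlap (0.48 ± 0.30; 0.504). Bcl2 and Bik were under the minimum.

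Caspase and apoptosome genes had 0 of 13 called, a median of -0.08 and 6 of 13 above 0. Diablo, which releases caspases from their inhibitors, stood at 654, 755, 814 and 934 in the knockout and at 1181, 1079, 1222 and 1006 in wild type, with no overlap (-0.51 ± 0.15; limma adjusted p = 0.162). Aifm1, a mitochondrial flavoprotein, had 3029 to 3686 in the knockout against 2038 to 3003 in wild type, also apart (0.35 ± 0.15; 0.316).

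Among death receptor genes around Fas, 0 of 7 were called and the median was 0.02. Faim, an inhibitor of death through Fas, was at 305, 277, 188 and 291 in knockout livers and 422, 474, 389 and 433 in wild-type livers, a log2 fold change of -0.68 ± 0.18 (limma adjusted p = 0.125). Like Fas it was lower in every knockout liver. Cflar, the decoy that blocks caspase 8 at the receptor, stood at 1154 to 1416 in the knockout against 803 to 1089 in wild type (0.43 ± 0.14; 0.203), although its 3 probe sets ran from -0.57 to 0.69. The Fas ligand gene Fasl and Tnf were under the signal minimum.

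Close relatives of the set had a median of 0.48, the highest of the 7 lists, where 6 of 7 were above 0 and 0 were called. Gadd45g was at 372, 402, 404 and 325 in the knockout and at 251, 208, 303 and 188 in wild type, without overlap (0.64 ± 0.18; limma adjusted p = 0.155). That is opposite in sign to Gadd45a (-0.61), and Gadd45b stood at -0.07. Tob2, of the Btg and Tob family, was at 1336 to 1504 in the knockout against 839 to 1225 in wild type (0.48 ± 0.16; 0.204), with 5 probe sets between 0.01 and 0.60. For immediate early genes, the class to which Btg2 also belongs, the median was 0.29, 7 of 10 were above 0 and 0 were called, and the median was 0.56 in replicates 1 and 2 and -0.05 in replicates 3 and 4. Of these Myc stood at 0.32 ± 0.17 and Ier2 at 0.38 ± 0.24.

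**Figure D4:**
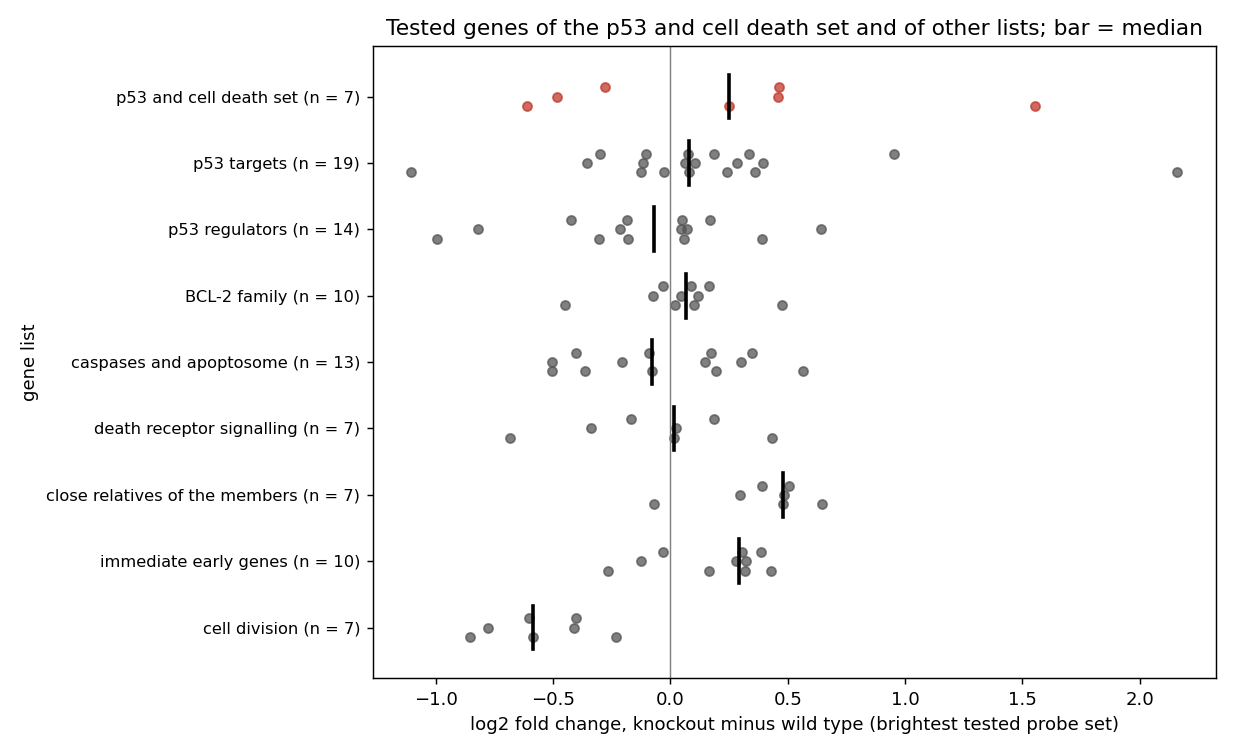
Log2 fold change, knockout minus wild type, of each tested gene by its brightest probe set, with 1 row per list and a black bar at the median; the top row holds the 7 tested genes of the p53 and cell death set. Medians lie between -0.08 and 0.48 for the 7 wider lists, and all 7 cell division genes lie below 0.

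The other cell type lists were read beside these values. Hepatocyte markers had 7 of 7 above 0 with a median of 0.08 (0.32 in replicates 1 and 2 and -0.08 in replicates 3 and 4) and summed signals of 138927 to 194488 in knockout and 123470 to 150864 in wild-type livers. Medians were -0.10 for erythroid, -0.22 for granulocyte, -0.42 for B lymphoid, 0.14 for macrophage, -0.35 for stellate, 0.05 for endothelial and -0.06 for cholangiocyte markers. The sign of the median also turned between the array sets for erythroid (-0.31 in replicates 1 and 2 and 0.16 in replicates 3 and 4), macrophage (0.39 and -0.06) and endothelial markers (0.21 and -0.11). Of all these markers 0 were called over the 8 arrays. Tat, a hepatocyte enzyme of tyrosine breakdown, stood at 8501 to 24304 in knockout and 4878 to 6673 in wild-type livers (1.33 ± 0.26, limma adjusted p = 0.0674). It passed with the array sets as a block (0.0468) and without knockout 4 (1.60, adjusted p = 0.0124). Those fits called 0.902% and 1.64% of all probe sets. The collagen gene Col3a1 of the stellate list stood at -1.03 ± 0.30 (0.158) and passed with the block (0.0235). Tat and Col3a1 were picked with their values known. The part of the marker lists in the values of the set was not tested.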

How the data were processed

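RNA of 8 livers was hybridised to 1 array each. The authors made the deposited signal intensities (linear scale) with Affymetrix GCOS 1.2 at default settings, with every array scaled to a target of 500, per the labels. There are no detection calls, and the number of arrays limits the precision. Sample titles gave the groups and replicate numbers.

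Probe sets were named by Entrez identifier through a RefSeq gene table: 34945 had 1 gene, 932 several and 9160 none, and 64 controls were left out. Probe sets that reached 200 on 4 or more arrays were tested on log2(signal + 16) with limma 3.58.1 (eBayes with an intensity trend, two-sided) in R 4.3.3, and called at a Benjamini-Hochberg adjusted p under 0.05. Fold changes are knockout minus wild type. A gene is represented by its brightest tested probe set. The fit was tested on simulated data. Tables were made with Python 3.11.15.

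The members and lists were chosen with earlier results of these data known. All 10 genes are named, and in each list the called genes up to 4, or else the 2 with the smallest p. The replicate numbers were not taken as pairs.

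Alternatives were the pseudocount, the signal minimum, the scaling, the trend, blocks, a 3'/5' covariate, each array set (replicates 1 and 2, or 3 and 4), other probe set rules and each array left out.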

Additional observations from a re-analysis of the deposited data

Results flagged for a closer look

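On the second Trp53inp1 probe set, wild type 3 lay below the other wild-type livers (265 against 333, 347 and 347), with a gap of 0.845 of the group's range on the log2 scale, above the critical value of Dixon's test. Chance gives about 1 such value in 20 groups, and 28 groups of 4 were examined, of which 1 stood out.

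On the dimmest of the Ccng1 probe sets the array sets went opposite ways. In replicates 1 and 2 the knockout signals were 529 and 597 beside 939 and 601 in wild type, and in replicates 3 and 4 they were 683 and 803 beside 621 and 461. The log2 fold changes were -0.41 and 0.46, a difference of 0.87 (limma adjusted p of the difference = 0.490), and the other Ccng1 probe sets had negative values in both array sets.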

How the results depend on the processing

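By their brightest probe set, the 7 genes of the set were refitted under 159 combinations of gene and alternative, all of which kept their direction, and 3 passed the threshold. Other signal minima, the fit without the trend and the blocks over all arrays leave the fold change unchanged, so direction could not turn there. On the second Mdm2 and the dimmest Ccng1 probe sets the sign did turn in some refits, as without knockout 4 (-0.06 and -0.08). Trp53inp1 passed with the array sets as a block and without wild type 4 (1.91, adjusted p = 0.0260) and without knockout 4, its values running from 1.24 to 1.91 with 1 array left out. Gadd45a passed without knockout 4, its values then running from -0.70 to -0.54. So 0 genes of the set were called in the main setting, 1 with the block and without wild type 4, and 0 to 2 with 1 array left out. Of the pathway genes, 1 (Siva1) was called with the block and without wild type 4, and 0 to 2 with 1 array left out, Siva1 and Cdkn1a without knockout 4. Of all probe sets tested, 0.755% were called with the block and without wild type 4, and 1.64% without knockout 4, beside 0.299% in the main setting. With any tested probe set of a gene counted, 0 genes of the set were called in the main setting. The second Trp53inp1 probe set passed with the array sets as a block (limma adjusted p = 0.0426) and without knockout 4 (0.0251). It also passed at a signal minimum of 400 (0.0475). It met that minimum only through the knockout arrays, since all 4 wild-type arrays were under 400, so the call at 400 is no support. Bbc3 and Fas do not reach that minimum and have no value there. Arrays with the same replicate number deviated together with correlations of 0.22, 0.40, 0.34 and 0.05, and knockout 4 correlated best with wild type 3 (0.37), so the numbers were not taken as pairs. With the replicate block, 56 probe sets were called in place of 61, and Trp53inp1 stood at 1.56 (adjusted p = 0.114).

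Over all probe sets the count of 61 became 21 with no signal minimum, 22 at a minimum of 100, 111 at 400, 18 without the intensity trend, 184 with the array sets as a block, 154 with that block and without wild type 4, 30 in replicates 1 and 2 and 2 in replicates 3 and 4. With 1 array left out it ran from 2 (without knockout 2, knockout 3, wild type 2 or wild type 3) to 334 (without knockout 4). The causes were not tested. Signals under 200 limit Zmat3 and the dim Mdm2 probe set.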
